A study of Homo sapiens with 6 samples.

Results

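The 10 genes described here encode the cyclins and kinases that drive cells out of G1 and the RB proteins that hold them there: the D cyclins CCND1 and CCND3, the E cyclins CCNE1 and CCNE2, the kinases CDK2, CDK4 and CDK6, and the RB proteins RB1, RBL1 and RBL2. They were chosen by name, as were the gene lists further down, with earlier results of these data known. They were matched on the gene symbol, and all 10 were found among the 63241 genes of the table. RNA was sequenced from T24, an established human bladder cancer line, in 3 libraries transfected with a small interfering RNA against USP43 (siUSP43, genotype given as USP43 knockdown) and 3 transfected with a control small interfering RNA (siNC, genotype given as WT). USP43 is a deubiquitinating enzyme, and the series title ties it to E2F1, cholesterol and gemcitabine resistance. Both groups were grown in the same medium and carry the same batch label. Whether the numbers 1 to 3 stand for separate cultures or separate duplexes is not given in the labels. The p-values therefore cover the spread among these 6 libraries, which may be technical.

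In textbook outline, mitogens raise D cyclins, which bind CDK4 or CDK6 and begin to phosphorylate the RB proteins. RB1 mainly restrains the activating E2F factors, while RBL1 (p107) and RBL2 (p130) work with E2F4 and E2F5 and with the MuvB complex to repress cell cycle genes. Cyclin E with CDK2 completes RB phosphorylation and starts DNA replication, and the E cyclin genes and RBL1 are themselves known E2F targets.

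Libraries held 21430574 to 25577200 gene counts, and libraries of a group differed by more than counting noise (chi-square of 2.28 to 14.9 per degree of freedom). USP43 was at 1.02, 0.67 and 0.80 FPKM (fragment counts scaled to exon length and sequencing depth) in siUSP43 libraries 1 to 3, against 2.36, 2.09 and 2.08 FPKM in siNC libraries 1 to 3. The epithelial markers KRT7, KRT8, KRT18 and KRT19 were present, with 9.37 FPKM on average in siUSP43 and 12.0 FPKM in siNC for the lowest of them, KRT19, while CDH1 averaged 0.00 FPKM in siUSP43 and 0.01 FPKM in siNC. KRT7 and KRT19 fell (log2 fold change -0.38 each). EPCAM, below the filter, was at 1.24 ± 0.0603 FPKM in siUSP43 and 0.587 ± 0.129 FPKM in siNC (SD, n = 3 each), without overlap. The 6 epithelial markers summed to 466 to 530 FPKM in siUSP43 and 524 to 541 FPKM in siNC. All 12 markers of blood, endothelial, fibroblast and muscle cells were under 1 FPKM in every library, and CD3E had a count of 0 throughout.

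Of the 10 genes, CDK6, RBL1 and CCNE2 rose in siUSP43, CCND1 and CCNE1 fell, and CCND3, CDK2, CDK4, RB1 and RBL2 did not pass the test (edgeR quasi-likelihood test, Benjamini-Hochberg adjusted p under 0.05 over 11417 tested genes). All 10 were above the filter of a mean of 1 FPKM over the 6 libraries. The same test called 56.1% of all tested genes, 28.0% higher and 28.1% lower, so 5 of 10 is close to the share among all genes. The median log2 fold change was 0.00 over the 10 genes and -0.01 over all tested genes. Cyclins, kinases and RB proteins each included genes that changed and genes that did not pass. These are bulk RNA levels, in which a change in the share of cells in a cell cycle phase and a change of RNA per cell cannot be told apart.

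**Figure D1:**
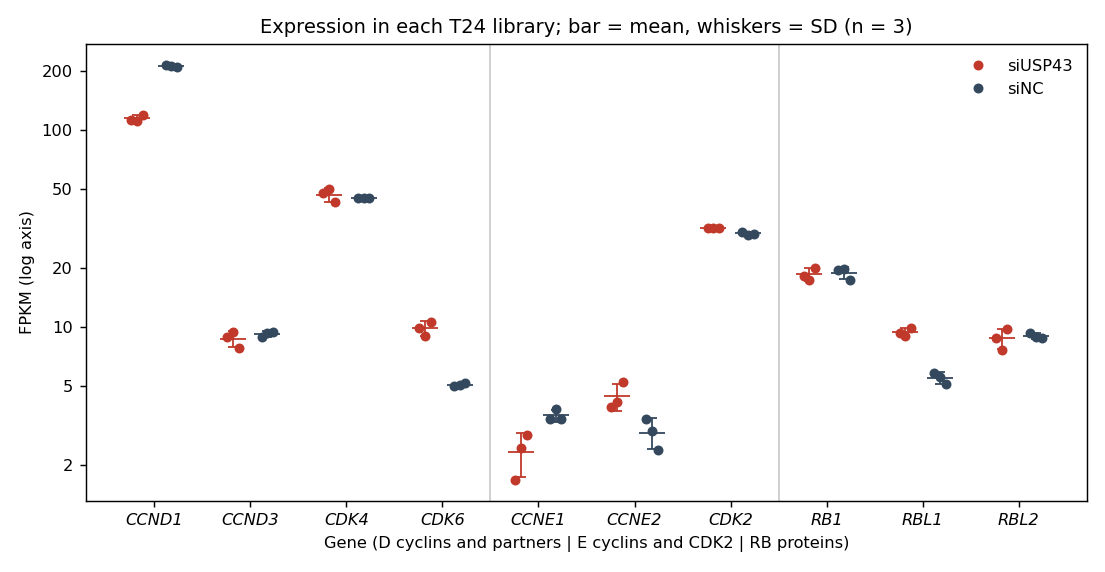
FPKM of the 10 genes in each library on a log axis, siUSP43 in red left of siNC in dark blue, with means and SD (n = 3 each). CCND1 stands highest in both groups, at 111 to 119 FPKM in siUSP43 and 209 to 214 FPKM in siNC, and CCNE1 and CCNE2 are lowest, with CCNE2 above in siUSP43 and CCNE1 above on average in siNC.

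CCND1, the cyclin D1 gene (ENSG00000110092, GRCh38 chromosome 11, 69641156 to 69654474, plus strand), had 112.97, 111.31 and 119.03 FPKM in siUSP43 libraries 1 to 3, against 214.31, 212.1 and 208.84 FPKM in siNC libraries 1 to 3. The groups lay far apart, and no siUSP43 library came near the lowest siNC library. CCND1 averaged 114 ± 4.06 FPKM in siUSP43 and 212 ± 2.75 FPKM in siNC (SD, n = 3 each), a fold of 0.534, or -0.90 ± 0.04 on the log2 scale (SE; edgeR, Benjamini-Hochberg adjusted p = 1.61e-08). Even so it remained one of the more abundant transcripts, at rank 224 of the 11417 tested genes by mean FPKM in siUSP43 and rank 111 in siNC. LTO1, on the opposite strand, shares 1399 bases of gene span, introns included, with CCND1. At 3.07 FPKM in siUSP43 and 3.47 FPKM in siNC, LTO1 was a small fraction of the CCND1 level.

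CCND3, the cyclin D3 gene (ENSG00000112576, chromosome 6, 41934934 to 42050357, minus strand), had 8.93, 9.4 and 7.83 FPKM in siUSP43 libraries and 8.84, 9.29 and 9.44 FPKM in siNC libraries. The groups overlapped, and the log2 fold change was -0.09 with a 95% interval of -0.25 to 0.06 (edgeR, Benjamini-Hochberg adjusted p = 0.281). CCND2, the remaining D cyclin, was close to silent in T24, with 2, 0 and 0 counts in the siUSP43 libraries and 2, 3 and 0 in the siNC libraries, and was below the filter. CCND1 therefore made up 92.2 to 93.8% of the summed CCND1 and CCND3 FPKM in siUSP43 and 95.7 to 96.0% in siNC. The summed FPKM of these D cyclins was 123 ± 3.26 in siUSP43 and 221 ± 2.47 in siNC (SD, n = 3 each).

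CDK6, a kinase partner of the D cyclins (ENSG00000105810, chromosome 7, 92604921 to 92836573, minus strand), had 9.92, 9.01 and 10.65 FPKM in siUSP43 libraries 1 to 3, against 4.99, 5.07 and 5.18 FPKM in siNC libraries 1 to 3. Every siUSP43 library was above every siNC library, and the siNC values were tightly grouped. CDK6 averaged 9.86 ± 0.822 FPKM in siUSP43 and 5.08 ± 0.0954 FPKM in siNC (SD, n = 3 each), a fold of 1.92, or 0.94 ± 0.06 on the log2 scale (SE; edgeR, Benjamini-Hochberg adjusted p = 2.03e-07). A larger absolute log2 fold change was found in 4.89% of all tested genes, and in 5.38% for CCND1.

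CDK4, the paralogous kinase (ENSG00000135446, chromosome 12, 57747727 to 57756013, minus strand), had 48.06, 50.16 and 42.85 FPKM in siUSP43 libraries and 45.33, 45.32 and 45.41 FPKM in siNC libraries. The siUSP43 libraries lay on both sides of the siNC values, which hardly differed among themselves. Its log2 fold change was 0.04 with a 95% interval of -0.09 to 0.16 (edgeR, Benjamini-Hochberg adjusted p = 0.627). TSPAN31 and MARCHF9, which overlap the ends of CDK4 on the opposite strand, both fell, with log2 fold changes of -0.97 and -0.59 (edgeR, Benjamini-Hochberg adjusted p = 1.13e-06 and 1.41e-05). Their levels were low beside CDK4, at 2.45 and 4.49 FPKM in siUSP43 and 4.74 and 6.70 FPKM in siNC. Whether the counting kept the strands apart is not given in the sources used here.

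CDK4 stayed the more abundant of the paired kinases, but CDK6 took a larger part of their summed FPKM, 15.2 to 19.9% in siUSP43 and 9.92 to 10.2% in siNC. Their sum was 56.9 ± 2.99 FPKM in siUSP43 and 50.4 ± 0.14 FPKM in siNC (SD, n = 3 each). The direction of CDK6 was thus opposite to that of CCND1, whose product it binds.

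CCNE1, the cyclin E1 gene (ENSG00000105173, chromosome 19, 29811991 to 29824312, plus strand), had 1.67, 2.44 and 2.82 FPKM in siUSP43 libraries 1 to 3, against 3.41, 3.84 and 3.41 FPKM in siNC libraries 1 to 3. The groups did not overlap, but the siUSP43 libraries were widely spread and library 1 was lowest, with 123 counts. CCNE1 fell, with a fold of 0.643 and a log2 fold change of -0.64 (SE 0.16; edgeR, Benjamini-Hochberg adjusted p = 0.00525).

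CCNE2, the cyclin E2 gene (ENSG00000175305, chromosome 8, 94879770 to 94896678, minus strand), had 3.92, 4.14 and 5.26 FPKM in siUSP43 libraries 1 to 3, against 3.41, 2.95 and 2.37 FPKM in siNC libraries 1 to 3. Every siUSP43 library was above every siNC library, with both groups spread over a similar width. CCNE2 rose, with a fold of 1.51 and a log2 fold change of 0.60 (SE 0.13; edgeR, Benjamini-Hochberg adjusted p = 0.00258). INTS8 and NDUFAF6 overlap CCNE2 on the opposite strand by 1977 and 1146 bases of gene span, introns included. INTS8, at 11.3 FPKM in siUSP43 and 10.8 FPKM in siNC, is more abundant than CCNE2 and did not pass the test (log2 fold change 0.05). NDUFAF6, at 1.58 FPKM in siUSP43 and 1.06 FPKM in siNC, rose (log2 fold change 0.56). An unnamed gene on that strand, ENSG00000272509, overlaps CCNE2 by 462 bases of span. It was at 0.857 FPKM in siUSP43 and 1.32 FPKM in siNC (log2 fold change -0.63, not past the test). The part of these 3 genes in the CCNE2 counts was not tested.

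Summed, the E cyclin transcripts were at 6.75 ± 1.25 FPKM in siUSP43 and 6.46 ± 0.592 FPKM in siNC (SD, n = 3 each), and the groups overlapped. CCNE2 supplied 62.9 to 70.1% of the sum in siUSP43 and 41.0 to 50.0% in siNC, so the order of the E cyclins by mean level was reversed between the groups. In siNC library 1 both stood at 3.41 FPKM, and their ranges met in siNC but not in siUSP43.

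CDK2, the kinase partner of the E cyclins (ENSG00000123374, chromosome 12, 55966781 to 55972789, plus strand), had 31.92, 31.76 and 31.72 FPKM in siUSP43 libraries and 30.34, 29.46 and 29.72 FPKM in siNC libraries. The groups did not overlap, as for 62.2% of all tested genes, but the difference was small. The log2 fold change was 0.08 with a 95% interval of -0.02 to 0.17 (edgeR, Benjamini-Hochberg adjusted p = 0.15).

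**Figure D2:**
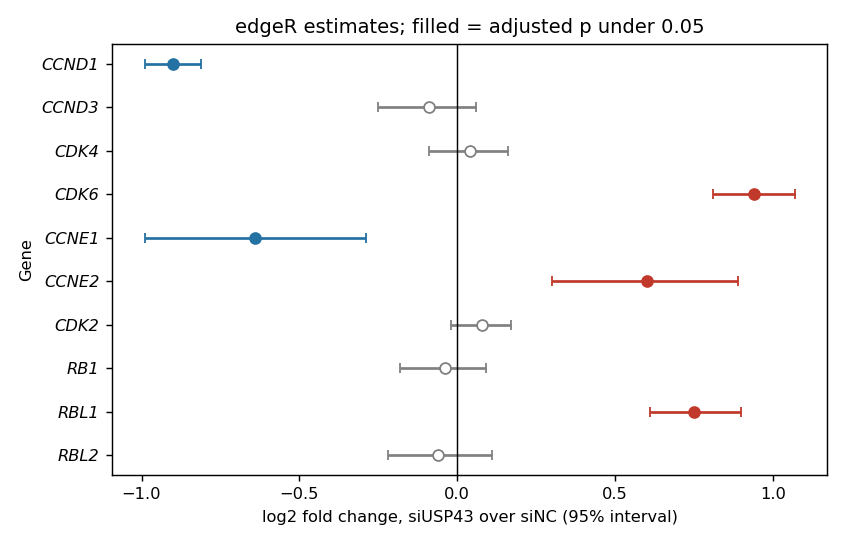
log2 fold change of each gene, siUSP43 over siNC, with its 95% interval from edgeR (3 libraries a group). Filled points passed the adjusted threshold, namely CDK6, CCNE2 and RBL1 to the right of 0 and CCND1 and CCNE1 to the left. The intervals of CCND3, CDK4, CDK2, RB1 and RBL2 include 0.

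Among the RB proteins, RBL1 (p107; ENSG00000080839, chromosome 20, 36996349 to 37095997, minus strand) had 9.37, 8.97 and 9.88 FPKM in siUSP43 libraries 1 to 3, against 5.86, 5.56 and 5.14 FPKM in siNC libraries 1 to 3. The groups were well apart, with the lowest siUSP43 library above the highest siNC library. RBL1 averaged 9.41 ± 0.456 FPKM in siUSP43 and 5.52 ± 0.362 FPKM in siNC (SD, n = 3 each), a fold of 1.69, or 0.75 ± 0.06 on the log2 scale (SE; edgeR, Benjamini-Hochberg adjusted p = 1.90e-06).

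The promoters of RBL1 and CCNE1, both known E2F targets, are shown, a pair picked after their opposite directions were seen. Each runs from 250 bases before to 50 bases after the gene's start, 5′ to 3′ on the gene's strand (RefSeq, GRCh38.p14). RBL1 lies at chr20:37095948-37096247 on the minus strand and CCNE1 at chr19:29811741-29812040 on the plus strand. Capitals mark matches to the E2F motif, searched on both strands as TTTGGCGC, TTTCGCGC, TTTCCCGC and TTTGCCGC.
RBL1: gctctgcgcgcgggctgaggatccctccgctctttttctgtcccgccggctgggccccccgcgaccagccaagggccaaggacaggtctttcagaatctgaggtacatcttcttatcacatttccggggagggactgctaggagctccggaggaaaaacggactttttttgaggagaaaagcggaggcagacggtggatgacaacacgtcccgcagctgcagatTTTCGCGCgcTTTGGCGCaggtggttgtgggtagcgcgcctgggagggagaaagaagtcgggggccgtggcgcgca
CCNE1: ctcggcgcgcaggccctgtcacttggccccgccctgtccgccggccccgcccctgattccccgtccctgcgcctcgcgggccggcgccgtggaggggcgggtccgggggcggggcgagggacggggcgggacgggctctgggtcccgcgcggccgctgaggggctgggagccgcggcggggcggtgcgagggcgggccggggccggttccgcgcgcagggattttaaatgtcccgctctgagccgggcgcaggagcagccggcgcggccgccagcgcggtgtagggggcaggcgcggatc
The RBL1 window held 2 matches in tandem, TTTCGCGC from 26 to 19 bases and TTTGGCGC from 16 to 9 bases before the start. Any match was found in 3.31% of all 35116 promoter windows, and at least 2 matches in 0.145%. The CCNE1 window held no exact match to these strings, and neither did those of CCND3, CDK4, CDK6, RB1 and RBL2. The windows of RBL1 and CCNE1 and 1 of those of CDK6 are set on the first base of the gene as the table gives it. The other windows, those of CCND3, CDK4, RB1 and RBL2 among them, are set on starts inside the gene. The RB1 window, at 48476200 to 48476499, lies far from the gene's first base at 48303744. For CCND3, CDK4, RB1 and RBL2 the promoter at the first base was therefore not searched as such. CCND1 and CDK2 had no entry, and CCNE2 was not searched. A match is an exact run of letters, so near matches were not counted, and was not tested as a binding site. Whether matches bear on the direction of any gene was not tested.

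RB1, the retinoblastoma gene (ENSG00000139687, chromosome 13, 48303744 to 48599436, plus strand), had 18.2, 17.26 and 19.99 FPKM in siUSP43 libraries and 19.39, 19.74 and 17.39 FPKM in siNC libraries. The groups overlapped almost fully, and the log2 fold change was -0.04 with a 95% interval of -0.18 to 0.09 (edgeR, Benjamini-Hochberg adjusted p = 0.579). RCBTB2, which lies within RB1 on the opposite strand, fell (log2 fold change -0.66) at 1.73 FPKM in siUSP43 and 2.72 FPKM in siNC.

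RBL2 (p130; ENSG00000103479, chromosome 16, 53433977 to 53491648, plus strand) had 8.83, 7.65 and 9.76 FPKM in siUSP43 libraries and 9.30, 8.94 and 8.74 FPKM in siNC libraries. The siUSP43 libraries spanned the siNC range, with library 2 lowest and library 3 highest. The log2 fold change was -0.06 with a 95% interval of -0.22 to 0.11 (edgeR, Benjamini-Hochberg adjusted p = 0.553). Without siUSP43 replicate 3 it was -0.14 and passed (edgeR, Benjamini-Hochberg adjusted p = 0.0479, within a range of 0.0479 to 0.785 over the alternatives), and without siUSP43 replicate 2 it was 0.03. AKTIP, which overlaps RBL2 by 609 bases of gene span on the opposite strand, rose (log2 fold change 0.23). It was at 3.84 FPKM in siUSP43 and 3.24 FPKM in siNC. RBL1 made up 24.9 to 26.5% of the summed FPKM of the 3 RB proteins in siUSP43 and 16.2 to 17.0% in siNC, with RB1 the largest part in both groups.

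The balance between related genes was also compared within each library, where library scaling cancels. The CCND1 to CCND3 FPKM ratio was 12.7, 11.8 and 15.2 in siUSP43 libraries and 24.2, 22.8 and 22.1 in siNC libraries. The CDK6 to CDK4 ratio was 0.206, 0.18 and 0.249 in siUSP43 and 0.11, 0.112 and 0.114 in siNC. The CCNE1 to CCNE2 ratio was 0.426, 0.589 and 0.536 in siUSP43 and 1.00, 1.30 and 1.44 in siNC. Each of these ratios separated the groups without overlap. For single genes, FPKM did so in 62.2% of all tested genes. Each of these ratios, and the RBL1 to RBL2 ratio below, includes a gene that passed the test. The ratios thus restate those fold changes and are not separate evidence.

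The RBL1 to RBL2 ratio was 1.06, 1.17 and 1.01 in siUSP43 and 0.63, 0.622 and 0.588 in siNC, also without overlap, so RBL1 was at or slightly above the RBL2 level in siUSP43 and below it in siNC. The RB1 to RBL2 ratio was 2.12 ± 0.117 in siUSP43 and 2.09 ± 0.109 in siNC (SD, n = 3 each), and the groups overlapped. The differences of the mean log2 ratio were -0.81 for CCND1 to CCND3, 0.90 for CDK6 to CDK4, -1.27 for CCNE1 to CCNE2, 0.82 for RBL1 to RBL2 and 0.02 for RB1 to RBL2. By an exact permutation test, two-sided, p was 0.1 for the first 4, the smallest that 3 against 3 allows, and 0.7 for the last (0.125 and 0.7 after Benjamini-Hochberg adjustment over the 5 ratios).

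**Figure D3:**
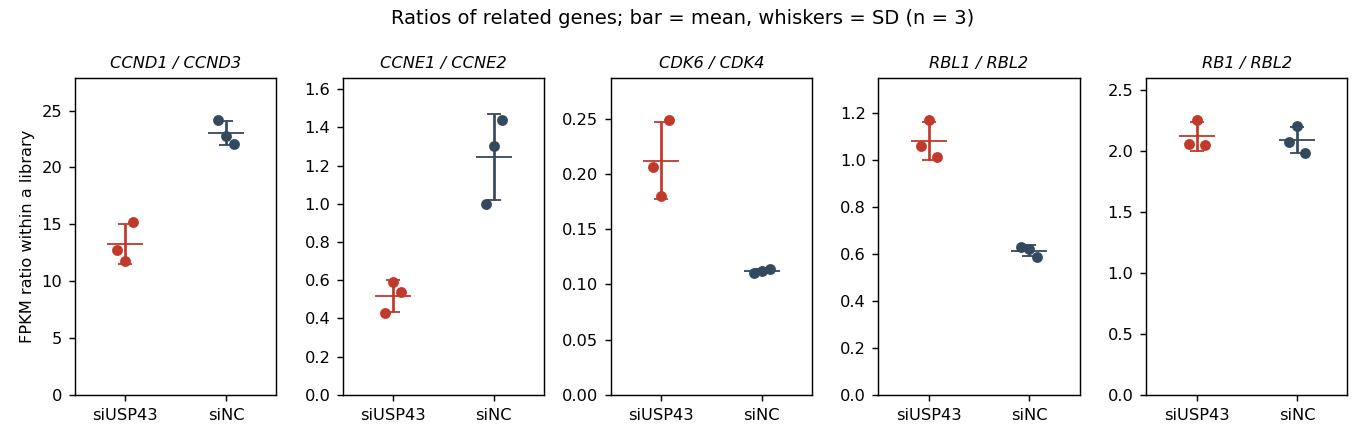
FPKM ratio of 5 pairs of related genes in each library, siUSP43 left of siNC, with mean and SD (n = 3 each) and every axis starting at 0. The groups stand apart for the first 4 pairs and overlap for RB1 over RBL2, at 2.12 in siUSP43 and 2.09 in siNC.

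By mean FPKM, CCND1, CDK4, CDK2 and RB1 were the 4 highest genes in that order in both groups, with no overlap between neighbours. Below them, CDK6, RBL1, RBL2 and CCND3 in siUSP43 lay within 8.72 to 9.86 FPKM, and each neighbour in that order overlapped the next. In siNC the order was CCND3, RBL2, RBL1 and CDK6, with CCND3 and RBL2 overlapping at 9.19 and 8.99 FPKM, and RBL1 and CDK6 overlapping at 5.52 and 5.08 FPKM. The E cyclins were lowest in both groups.

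The spread between libraries was wider in siUSP43 for several genes. The coefficient of variation of CDK4 was 8.0% in siUSP43 and 0.109% in siNC, and that of CCNE1 was 25.4% in siUSP43 and 6.99% in siNC. CCNE2 varied by 16.2% in siUSP43 and 17.9% in siNC. With 3 libraries a group these values are rough, and the difference in spread was not tested.

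By the distance of mean-centred, depth-scaled log2 counts (CPM) over the 6 libraries, the genes most like CCND1 were CAPZA1, HACD3 and TLE3, at distances of 0.0360, 0.0504 and 0.0589. Their log2 fold changes were -0.91, -0.89 and -0.92, beside -0.90 for CCND1. CAPZA1, an actin capping subunit, averaged 60.8 FPKM in siUSP43 and 113 FPKM in siNC. The genes most like CDK6 were CNTRL, B3GALT9 and TDG, at distances of 0.124, 0.125 and 0.126 and log2 fold changes of 0.87, 0.96 and 0.87. Likeness over 6 libraries in 2 groups mostly reflects the size of the group difference.

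The CDK inhibitors, which bind the cyclin kinase complexes, moved in both directions. Of 7 tested, 2 rose and 4 fell, beside 28.0% higher and 28.1% lower among all tested genes, with a median log2 fold change of -0.19. DESeq2 had 1 higher and 4 lower, and limma 2 higher and 2 lower. CDKN1C (p57) fell to 1.27 ± 0.278 FPKM in siUSP43, against 6.02 ± 0.101 FPKM in siNC (SD, n = 3 each; log2 fold change -2.25). CDKN1A (p21) fell by 0.78 on the log2 scale. CDKN1B (p27) fell by 0.21, though its groups overlapped in FPKM (edgeR, Benjamini-Hochberg adjusted p = 0.0163). CDKN2C (p18), which binds CDK4 and CDK6, rose by 0.38. The number that fell was 2 without siNC replicate 1 or without siUSP43 replicate 1. The number that rose was 1 without siNC replicate 1, siNC replicate 2, siUSP43 replicate 1 or siUSP43 replicate 2.

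Of 7 tested genes acting on the kinases, 5 rose and 0 fell, beside 28.0% higher and 28.1% lower among all tested genes, with a median log2 fold change of 0.27 (edgeR; 1 was lower at an unadjusted p under 0.05, and 0 by DESeq2 or limma). CDC25A, the phosphatase that removes inhibitory phosphate from CDK2, rose by 0.82 on the log2 scale to 13.4 ± 0.274 FPKM in siUSP43, against 7.48 ± 0.169 FPKM in siNC (SD, n = 3 each). WEE1, a kinase that adds such phosphate and so acts against activation, rose by 0.83, and CDC37, a chaperone of CDK4, by 0.30. PKMYT1, which like WEE1 is inhibitory, also rose (log2 fold change 0.25).

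Among 13 tested genes for the turnover of G1 cyclins and their inhibitors, 6 rose and 3 fell, with a median log2 fold change of 0.09, where 28.0% and 28.1% of all tested genes rose and fell. By limma 5 rose and 3 fell. The number that rose was 4 without siNC replicate 2 or without siNC replicate 3. The number that fell was 4 without siUSP43 replicate 2 or without siUSP43 replicate 3. FBXO4, an F-box protein linked to cyclin D1 turnover, rose by 0.48, and CUL1, the scaffold of SCF ligases, by 0.41. For CUL1 the lowest siUSP43 library, at 15.3 FPKM, was barely above the highest siNC library, at 15.05 FPKM. DDB1, the adaptor of CUL4 ligases, fell by 0.40. FBXW7, the F-box protein that directs cyclin E to degradation, rose to 1.39 FPKM in siUSP43, against 1.12 FPKM in siNC. Its log2 fold change was 0.30 (edgeR, Benjamini-Hochberg adjusted p = 0.0212). Its lowest siUSP43 library, at 1.30 FPKM, was close to its highest siNC library, at 1.24 FPKM. SKP2, which directs p27 to degradation, did not pass (log2 fold change 0.09). AMBRA1, of the same list, did not pass either (log2 fold change -0.11). FBXW7 and AMBRA1 were named after their values were seen. Protein levels were not analysed here.

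Downstream, 6 of 10 E2F and DP genes rose and 3 fell, beside 28.0% and 28.1% of all tested genes, so the number that fell was close to the general share. Their median log2 fold change was 0.41. TFDP1, the main dimer partner of E2Fs, rose to 59.3 ± 3.19 FPKM in siUSP43, against 34.6 ± 1.35 FPKM in siNC (SD, n = 3 each; log2 fold change 0.76). E2F8, a repressive member, rose by 0.73, and E2F1 by 0.48. E2F5, a partner of RBL1 and RBL2, fell by 0.88. The number that fell was 1 without siNC replicate 2 or without siUSP43 replicate 1.

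Of 22 G1 to S genes known to be held back by RB proteins, 15 rose and 0 fell, with a median log2 fold change of 0.24 (edgeR; 0 fell at an unadjusted p under 0.05, by DESeq2 or by limma). Among all tested genes 28.0% rose and 28.1% fell. The median absolute log2 fold change of all tested genes was 0.236, and the median of those that rose was 0.37, so these changes were of ordinary size. RRM1, a ribonucleotide reductase subunit, rose by 0.57, POLA1, of DNA polymerase alpha, by 0.48 and POLE, of DNA polymerase epsilon, by 0.42. Without siUSP43 replicate 3 the number that fell was 1. MYC, a factor that acts on G1 cyclin genes, did not pass (log2 fold change 0.09; edgeR, Benjamini-Hochberg adjusted p = 0.137).

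**Figure D4:**
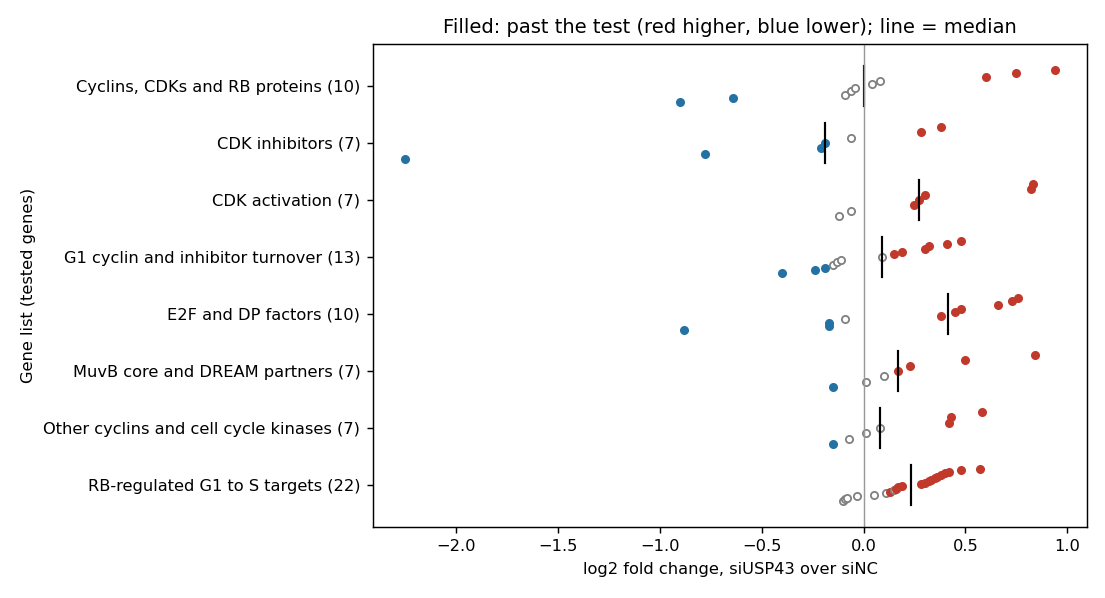
log2 fold change, siUSP43 over siNC, of every tested gene in the lists around the G1 machinery, red where higher and blue where lower past the test, open where not past, with a line at the list median. The cyclins, CDKs and RB proteins have a median of 0.00 with members on both sides, while the G1 to S targets, at a median of 0.24, hold 15 genes that rose.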

How the data were processed

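RNA was sequenced in 3 siUSP43 and 3 siNC libraries of T24 cells. The authors deposited raw read counts and FPKM per gene for each library, per the file headers. The submitters' processing notes name cutadapt 2.6, HISAT2 2.2.1 and build GRCh38. The counter, annotation release and strand setting are not given in the sources used here, so overlapping genes cannot be told apart fully, and 5 of the 10 genes overlap another tested gene. Counts were tested with edgeR 4.0.16 (R 4.3.3), quasi-likelihood with TMM scaling, group as the only term, on 11417 genes with a mean of at least 1 FPKM. Benjamini-Hochberg adjustment ran over all of these, with a two-sided threshold of 0.05. Ratios within libraries used FPKM and an exact permutation test. limma 3.58.1 on log2(FPKM + 1) and on log2(FPKM + 0.1), DESeq2 1.42.0, other scalings and filters, leaving out each library and a replicate block were alternatives. Median depth was 785 to 945 counts per tested gene. Among the 10 genes the least covered value, CCNE1 in siUSP43 library 1, rests on 123 counts. Some other named genes had fewer, with 116, 64 and 92 counts for CDKN1C in siUSP43 libraries 1 to 3. USP43 had 86 counts in siUSP43 library 2, and EPCAM, below the filter, had 33 in siNC library 1. The 10 genes and the lists were chosen with earlier results of these data known. Named list genes are the 3 largest absolute changes past the test in each list, plus E2F1, MYC, CCND2, CDKN1A, CDKN1B and SKP2. Markers were named to check the cell type, and PKMYT1 because its role differs from its list's name. Promoter windows came from RefSeq, and 7 of the 9 genes searched had one.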

Additional observations from a re-analysis of the deposited data

How the results depend on the processing

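The calls of CCND1, CCNE1, CCNE2, CDK6 and RBL1 kept their direction and side of the threshold under each of the alternatives that tested them (14 for CCND1, CDK6 and RBL1, 13 for CCNE1 and CCNE2). Their log2 fold changes ranged from -0.93 to -0.88, -0.82 to -0.44, 0.45 to 0.72, 0.83 to 1.00 and 0.68 to 0.80, in that order. With a mean FPKM of at least 5, CCNE1 and CCNE2 were not tested, which left 1 gene lower and 2 higher. Without siUSP43 replicate 2 CDK4 was at -0.01, RB1 at 0.00 and RBL2 at 0.03, against their signs with all libraries, and over single left-out libraries they ranged from -0.01 to 0.10, -0.10 to 0.00 and -0.14 to 0.03. With 1 library left out, 3 genes stayed higher and 2 to 3 were lower. With 1 added to each FPKM the log2 ratio difference was -0.95 for CCNE1 to CCNE2 and 0.72 for RBL1 to RBL2, as adding 1 compresses low values. The ranges over single left-out libraries were 1 to 2 higher and 2 to 4 lower for CDK inhibitors, 1 to 3 lower for E2F and DP genes, 2 to 4 higher and 0 to 1 lower for MuvB genes, 0 to 1 lower for other cyclins and kinases, 0 to 1 lower for G1 to S targets, and 0 to 2 higher for epithelial markers. With no filter on FPKM, 1 CDK inhibitor was higher, 0 other cyclins and kinases were lower and 2 epithelial markers were higher. With RLE size factors 1 epithelial marker was higher. Same-numbered libraries did not deviate together (correlations of -0.01, -0.13 and -0.26), and differently numbered ones ranged from -0.16 to 0.27. With 3 libraries a group this cannot settle whether the numbers pair the samples. With a replicate block, 3 of the 10 genes were higher and 2 lower, and 5616 of all tested genes passed, against 6409 without it. USP43 ranged from -1.57 to -0.80. CCNE1 had the fewest counts of the 10 genes, down to 123 in siUSP43 library 1, so its values carry the largest counting error.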

Other observations

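Of 7 tested cyclins and kinases outside the G1 set, 3 rose and 1 fell in siUSP43, with a median log2 fold change of 0.08. This is close to the 56.1% called among all tested genes, and DESeq2 and limma had 0 lower. CCNA2, the cyclin of S and G2 phase, averaged 49.2 ± 2.09 FPKM in siUSP43 and 36.3 ± 0.365 FPKM in siNC (SD, n = 3 each), which on the log2 scale is 0.42. CCNB2, a mitotic cyclin, rose by 0.58 on the log2 scale and CDK8, a Mediator kinase, by 0.43. CCNB1 and CDK1, the main mitotic cyclin and kinase, had log2 fold changes of -0.07 and 0.08 and did not pass (edgeR, Benjamini-Hochberg adjusted p = 0.203 and 0.116). They were named after their values were seen. The gene that fell, CCNC, did so by 0.15, and this call was lost without siNC replicate 1, 2 or 3, or without siUSP43 replicate 2.

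The MuvB complex, with which RBL1 and RBL2 repress cell cycle genes, and its partners had 4 of 7 tested genes that rose and 1 that fell, beside 28.0% and 28.1% of all tested genes, with a median log2 fold change of 0.17. MYBL2, which joins MuvB in place of the RB proteins when cells leave G1, averaged 80.3 ± 3.99 FPKM in siUSP43 and 44.3 ± 1.63 FPKM in siNC (SD, n = 3 each), which on the log2 scale is 0.84. LIN54, the DNA-binding subunit, rose by 0.50 and LIN9 by 0.23. The gene that fell was FOXM1, by 0.15, at 23.2 FPKM in siUSP43 and 25.5 FPKM in siNC, opposite in direction to MYBL2. FOXM1 was named after its values were seen. The number that rose was 2 without siNC replicate 3 or without siUSP43 replicate 1, and the number that fell was 0 without siNC replicate 3.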
